A study of Homo sapiens with 7 samples.

Results

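Small nucleolar RNA host genes are transcripts whose introns hold small nucleolar RNAs (snoRNAs), and the 9 described here were SNHG1, SNHG5, SNHG6, SNHG7, SNHG8, SNHG12, SNHG15, GAS5 and ZFAS1. They were taken by symbol from a deposited expression table of 23710 genes. The cells were SNU398, an established human hepatocellular carcinoma line, and the libraries were PEN-FFW, PEN-WT, PEN-MUT and PEN, 1 library each, from cells given 30 µM of the named peptide for 8 hours. All 4 peptides contain penetratin, the cell-penetrating carrier that PEN is on its own, and no untreated library is described here. As known from the field, PEN-WT adds a segment of the transcription factor SALL4 that binds RBBP4, PEN-MUT adds a mutated segment as a control, and PEN-FFW adds an engineered segment. The series' other 3 samples, from chromatin immunoprecipitation, were not analysed here.

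A host gene is transcribed and spliced like a messenger RNA, and the snoRNA is trimmed out of the removed intron. The snoRNAs of the box C/D class guide methylation of ribosomal RNA and those of the box H/ACA class guide its conversion of uridine to pseudouridine, in both cases within a particle of fixed core proteins. The spliced exons of many noncoding hosts carry no long reading frame and are cleared by nonsense-mediated decay, a translation-dependent pathway. Many of these genes also start at a run of pyrimidines, the 5′ TOP start shared with ribosomal protein genes, which ties the translation of an RNA to growth signalling. GAS5 was named for its accumulation in growth-arrested cells.

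Reads counted in genes above the table's floor numbered 27347377 with PEN-FFW, 40717633 with PEN-WT, 32043544 with PEN-MUT and 37784093 with PEN. The labelled liver cancer origin was checked with markers: GPC3 had 998 to 1281 normalized counts, SALL4 1168 to 1665, TDO2 916 to 1846 and ALB 83.1 to 157 over the 4 libraries, each lowest with PEN-FFW, whereas AFP had at most 11 and KRT8, KRT18 and TTR were listed at the floor in all 4. Among markers of other cell types, EPCAM had 701 and PTPRC 298 normalized counts with PEN-FFW, where both were lowest, and up to 1087 and 373 in the others. COL1A1 had 221 normalized counts with PEN-FFW, 182 with PEN-WT, 156 with PEN-MUT and 127 with PEN, and PECAM1 was listed at the floor. The part of these levels in the results was not tested. These levels are without the shift to the median tested gene that is described next. As deposited, the median of the 12578 genes tested was lower with PEN-FFW, with log2 differences of -0.27 against PEN, -0.30 against PEN-MUT and -0.30 against PEN-WT, and within 0.031 of 0 for the other 3 pairs. For that reason each difference is set against the median tested gene of its pair, as log2(normalized count + 10), with a counting standard error that leaves out variation between cultures. With 1 library per peptide no test between peptides was possible. In RNA from a whole culture, fewer cells that make a transcript and less of it per cell cannot be told apart.

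The start regions of the host genes are shown because 5′ TOP and TATA features, where a gene has them, lie there. RefSeq start regions (GRCh38.p14) were at hand for 7 members, and those of SNHG6 and SNHG15 were not used here. Each line gives 40 bases before and 30 bases from the annotated start on, 5′ to 3′. Capitals mark TATAA where it lay 40 to 19 bases before the start, and the longest run of at least 6 pyrimidines (C or T) from 10 bases before the start to base 20 after it, both on the gene's own strand. The regions are SNHG1 at chr11:62855856-62855925, minus strand, SNHG5 at chr6:85678704-85678773, minus strand, ZFAS1 at chr20:49278602-49278671, plus strand, GAS5 at chr1:173869016-173869085, minus strand, SNHG7 at chr9:136728155-136728224, minus strand, SNHG8 at chr4:118278722-118278791, plus strand and SNHG12 at chr1:28581844-28581913, minus strand.
SNHG1: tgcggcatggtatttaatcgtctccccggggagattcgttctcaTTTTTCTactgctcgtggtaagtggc
SNHG5: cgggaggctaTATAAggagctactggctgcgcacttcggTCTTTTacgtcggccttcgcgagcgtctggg
ZFAS1: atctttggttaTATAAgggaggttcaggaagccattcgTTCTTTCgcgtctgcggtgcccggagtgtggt
GAS5: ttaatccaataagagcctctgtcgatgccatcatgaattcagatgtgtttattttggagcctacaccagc
SNHG7: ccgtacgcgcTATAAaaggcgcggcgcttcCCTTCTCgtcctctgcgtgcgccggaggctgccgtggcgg
SNHG8: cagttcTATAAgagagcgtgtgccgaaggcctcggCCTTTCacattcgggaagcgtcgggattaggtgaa
SNHG12: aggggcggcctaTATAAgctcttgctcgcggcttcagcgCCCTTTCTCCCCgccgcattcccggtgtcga

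TATAA was present in 5 of the 7 regions (SNHG5, ZFAS1, SNHG7, SNHG8 and SNHG12), its first base 34 to 28 bases before the start, while 4.14% of 27305 RefSeq promoters held it in that window. A pyrimidine run was present in 6 of the 7, against 30.1% of promoters. Counted from the annotated start, it began at -1 in SNHG5 and SNHG12, -2 in ZFAS1 and -5 in SNHG8. In SNHG7 the longest run began at -10 and ended before the start, and in SNHG1 it began after the start, at base 5. A run in this window is therefore not in itself a 5′ TOP start. Only the longest run was marked. In SNHG7 a further run of 6 pyrimidines, tcctct, spans the annotated start from -2. In SNHG1 the pyrimidines ttctc span it but are short of 6. Within the window the longest run was 12 bases in SNHG12 and 6 or 7 bases in the other five, and that of SNHG7 goes on past the window's edge. At the RefSeq start of GAS5 used here neither was found, and no other annotated start of that gene was searched. The palindrome CACGTG, the site read by MYC and its relatives, occurred from 250 bases before to 50 bases after the start in SNHG7 alone, against 7.43% of promoters. These searches were chosen with the sequences in view, and a match is a description of letters.

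Of the 9 host genes, 8 had a mean of at least 50 normalized counts and were tested, and SNHG15 did not pass this filter. The SNHG15 row, the host of the H/ACA snoRNA SNORA9 (chromosome 7, 45022618 to 45026560, minus strand, GRCh37), was listed at the floor of 5 normalized counts in every library, which allows up to 5 reads with PEN-FFW, 6 with PEN-WT, 5 with PEN-MUT and 5 with PEN. The SNORA9 row was at the floor as well. So were the rows of EIF4A1, a translation initiation helicase, and RPL21, a ribosomal protein, both of which growing cells use, and 31.8% of all rows. A floor value in this table is therefore given only as listed, and no fold was computed for SNHG15.

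Set against PEN, 7 of the 8 tested host genes were below the median gene with PEN-FFW, and SNHG12 was above it. The median of the 8 was -0.18, with a range of -0.37 (SNHG8) to 0.12 (SNHG12), while the quartiles of all tested genes lay at -0.15 and 0.21. The 95% counting interval lay below 0 for 6 host genes and above 0 for SNHG12. The share of all tested genes with such intervals was not counted. Interval counts, here and for the other pairs, therefore have no background and describe single genes only. A threshold of 0.32 on the log2 scale either way served as a call of size. By it, 1 host gene (SNHG8) was lower and 0 were higher, where 5.67% of all tested genes were lower and 17.0% higher. As deposited, without the shift to the median gene, the median was -0.45 and SNHG12 stood below 0 too, at -0.15. On that scale 7 of the 8 passed the threshold downward and 0 upward, where 41.3% of tested genes were lower and 7.08% higher. In PEN-WT all 8 stood below the median gene relative to PEN, with a median of -0.12 and a range of -0.29 (SNHG8) to -0.02 (SNHG6), and 5 intervals lay below 0. By the threshold 0 were lower and 0 higher, where 3.53% of tested genes were lower and 5.93% higher. In PEN-MUT 6 of the 8 stood below, with a median of -0.09 and a range of -0.29 (SNHG12) to 0.09 (SNHG6), 4 intervals below 0, and again 0 genes past the threshold, against a background of 3.14% lower and 2.26% higher. These 3 comparisons share the PEN library. Together the 8 genes took 0.0568% of reads with PEN-FFW (95% Wilson interval 0.0559 to 0.0577), 0.0573% with PEN-WT (0.0566 to 0.0581), 0.0595% with PEN-MUT (0.0587 to 0.0604) and 0.0617% with PEN (0.0609 to 0.0625). These intervals cover counting error only.

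**Figure D1:**
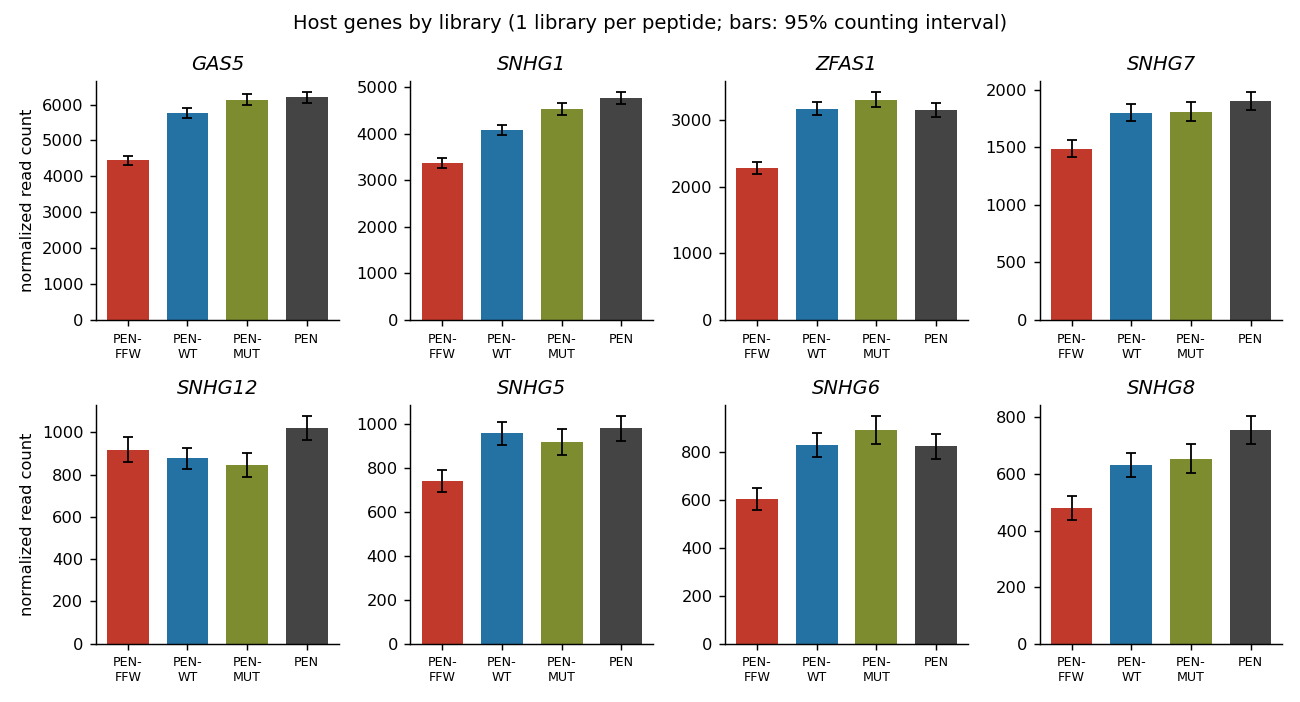
Normalized read counts of the 8 host genes above the filter (y axes from 0) in the PEN-FFW, PEN-WT, PEN-MUT and PEN libraries, 1 library per peptide, with 95% counting intervals as bars. PEN-FFW has the lowest bar for 7 genes, and for SNHG12 the lowest is PEN-MUT at 847 and the highest PEN at 1019. The bars are without the shift to the median tested gene, which itself differs with PEN-FFW by -0.27 (PEN), -0.30 (PEN-MUT) and -0.30 (PEN-WT) on the log2 scale.

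GAS5, SNHG1, ZFAS1, SNHG6 and SNHG5 host box C/D snoRNAs. GAS5, whose RNA also binds the glucocorticoid receptor (chromosome 1, 173827697 to 173838020, minus strand, GRCh37), was at 4445 normalized counts with PEN-FFW, 5769 with PEN-WT, 6129 with PEN-MUT and 6196 with PEN. PEN-FFW was the low library and PEN-MUT and PEN were close to each other. Against PEN, GAS5 differed by -0.21 ± 0.03 with PEN-FFW, -0.13 ± 0.02 with PEN-WT and -0.04 ± 0.02 with PEN-MUT, the last with an interval that spans 0 (-0.09 to 0.01). Relative to genes of like abundance, GAS5 stood at -0.10 with PEN-FFW against PEN. Its order, lowest with PEN-FFW, then PEN-WT, then the controls, was closest of all members to the median profile of the 8.

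SNHG1, first described as the host of U22 (chromosome 11, 62619450 to 62623425, minus strand), was at 3371 normalized counts with PEN-FFW, 4086 with PEN-WT, 4531 with PEN-MUT and 4762 with PEN. It stood at -0.23 ± 0.03 with PEN-FFW, -0.25 ± 0.03 with PEN-WT and -0.09 ± 0.03 with PEN-MUT against PEN, and every one of these intervals lay below 0. Relative to genes of like abundance, SNHG1 stood at -0.14 with PEN-FFW against PEN. Between PEN-FFW and PEN-WT it differed by 0.02 (-0.04 to 0.08), so no difference was detectable at this depth. In PEN-WT against PEN-MUT it had the largest difference among the members, -0.15 ± 0.03.

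ZFAS1, which lies antisense to the start of the ZNFX1 gene (chromosome 20, 47894715 to 47916137, plus strand), was at 2285 normalized counts with PEN-FFW, 3166 with PEN-WT, 3299 with PEN-MUT and 3149 with PEN. Only PEN-FFW stood apart. The difference of PEN-FFW was -0.19 ± 0.04 from PEN, -0.23 ± 0.04 from PEN-MUT and -0.17 ± 0.04 from PEN-WT. PEN-WT was at -0.02 (-0.09 to 0.04) and PEN-MUT at 0.05 (-0.02 to 0.11) against PEN. ZNFX1, on the other strand and overlapping ZFAS1 at its start, was at 1829 normalized counts with PEN-FFW and 2150 with PEN (a difference of 0.04). Without a stated strand setting, reads of the overlap cannot be assigned to either gene.

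SNHG6, the host of SNORD87 (chromosome 8, 67832796 to 67838633, minus strand), was at 603 normalized counts with PEN-FFW, 830 with PEN-WT, 890 with PEN-MUT and 823 with PEN. As with ZFAS1, PEN-FFW was low and the other three lay together. PEN-FFW differed by -0.17 ± 0.07 from PEN, -0.26 ± 0.07 from PEN-MUT and -0.15 ± 0.07 from PEN-WT. SNHG5, the host of SNORD50A and SNORD50B (chromosome 6, 86360209 to 86388650, minus strand), was at 740 normalized counts with PEN-FFW, 959 with PEN-WT, 920 with PEN-MUT and 981 with PEN. Relative to the median gene its differences were small, -0.13 ± 0.07 with PEN-FFW against PEN, and the intervals of the other five pairs spanned 0.

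SNHG8, SNHG7, SNHG12 and SNHG15 host box H/ACA snoRNAs, and SNHG8 had the largest difference from PEN among the members. It carries SNORA24 (chromosome 4, 119199858 to 119206471, plus strand) and was at 479 normalized counts with PEN-FFW, 631 with PEN-WT, 654 with PEN-MUT and 755 with PEN. PEN was the high library. The differences from PEN were -0.37 ± 0.08 with PEN-FFW (interval -0.53 to -0.22), -0.29 ± 0.07 with PEN-WT and -0.23 ± 0.07 with PEN-MUT, while the intervals among PEN-FFW, PEN-WT and PEN-MUT spanned 0. SNHG7, with SNORA17 and SNORA43 in its introns (chromosome 9, 139615818 to 139622636, minus strand), was at 1488 normalized counts with PEN-FFW, 1800 with PEN-WT, 1809 with PEN-MUT and 1899 with PEN. Its differences were small once the median gene was taken out: PEN-FFW was at -0.08 ± 0.05 against PEN, PEN-WT at -0.11 ± 0.04 and PEN-MUT at -0.09 ± 0.05. SNHG7 has the most GC-rich canonical transcript of the members (65.9%, the others 39.0% to 54.8%), and the median gene of like GC content stood at 0.25 with PEN-FFW against PEN. Relative to such genes SNHG7 stood at -0.33 with PEN-FFW against PEN, past the threshold, and at -0.26 with PEN-WT. SNHG8, the most AT-rich member, stood at -0.28 with PEN-FFW relative to genes of like GC content, short of the threshold.

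SNHG12 had another order than the other members tested. Its introns hold 3 H/ACA snoRNAs and SNORD99 (chromosome 1, 28905050 to 28909644, minus strand), and it was at 919 normalized counts with PEN-FFW, 876 with PEN-WT, 847 with PEN-MUT and 1019 with PEN. Relative to the median gene it was higher with PEN-FFW than with PEN-WT by 0.37 ± 0.06 (interval 0.25 to 0.49) and than with PEN-MUT by 0.41 ± 0.07 (0.28 to 0.54), past the threshold in both, where 11.2% and 16.5% of tested genes were that much higher. Against PEN, PEN-FFW stood at 0.12 ± 0.06, PEN-WT at -0.25 ± 0.06 and PEN-MUT at -0.29 ± 0.06. The ratio of SNHG12 to another member does not depend on library scaling. SNHG12 was higher relative to GAS5 by 0.44 with PEN-FFW against PEN-WT (interval 0.31 to 0.57), by 0.58 against PEN-MUT (0.44 to 0.72) and by 0.33 against PEN (0.20 to 0.46). SNHG8 relative to SNHG12 differed by -0.50 with PEN-FFW against PEN (-0.69 to -0.30), but the interval spanned 0 with PEN-WT against PEN (-0.22 to 0.14). As deposited, without the shift to the median gene, SNHG12 passed the threshold in neither pair (0.067 and 0.12) and stood below PEN with PEN-FFW (-0.15). The gene TRNAU1AP, whose end overlaps that of SNHG12 on the other strand, stood at 0.01 with PEN-FFW against PEN.

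**Figure D2:**
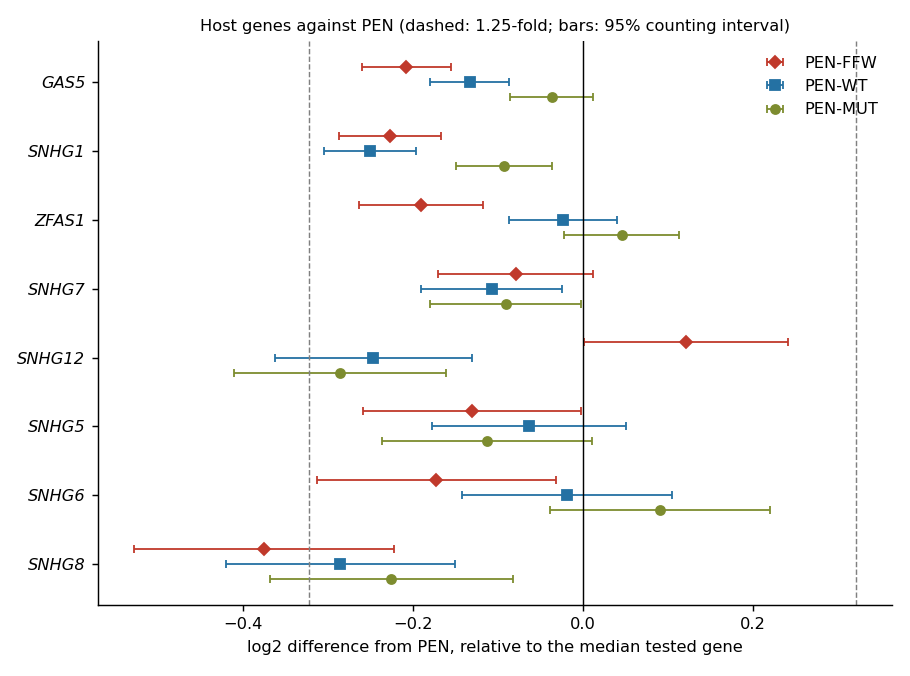
Difference between each peptide library and PEN on the log2 scale, with the median tested gene at 0 (x axis), for the 8 host genes, with diamonds for PEN-FFW, squares for PEN-WT and circles for PEN-MUT, 95% counting intervals from 1 library per peptide and dashed lines at the threshold of 0.32. Only for SNHG12 does PEN-FFW lie right of 0 (0.12, or -0.15 without the shift to the median gene), and the SNHG8 symbol of PEN-FFW (-0.37) lies past a dashed line.

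The engineered and native peptides were compared at the same dose and time. Between PEN-FFW and PEN-WT, the host gene median was -0.07, 3 intervals (ZFAS1, SNHG6 and GAS5) lay below 0 and SNHG12 lay above. Relative to genes of like abundance GAS5 stood at -0.01 in this pair. The count past the threshold was 0 lower and 1 higher, against 1.29% and 11.2% of tested genes. PEN-FFW against PEN-MUT gave a median of -0.14, with GAS5 (-0.16 ± 0.03), SNHG1 (-0.13 ± 0.03), ZFAS1 and SNHG6 below 0 and SNHG12 above. Against genes of like abundance GAS5 stood at -0.07 and SNHG1 at -0.05. Here 0 were lower and 1 was higher by the threshold, where the background was 2.49% and 16.5%. For PEN-WT against PEN-MUT the median was -0.06, with intervals below 0 for SNHG1 and GAS5 (-0.09 ± 0.02), and 0 genes past the threshold, against 0.596% lower and 5.57% higher. For SNHG7 no difference between PEN-WT and PEN-MUT was detectable (-0.10 to 0.08). These medians were closer to 0 without GAS5 and SNHG8, the members of most and fewest counts, at -0.070 for PEN-FFW against PEN-MUT, -0.022 for PEN-FFW against PEN-WT and -0.034 for PEN-WT against PEN-MUT. On the deposited scale 5 of the 8 host genes passed the threshold downward and 0 upward with PEN-FFW against PEN-MUT, where 45.6% of tested genes were lower and 6.57% higher, and 5 and 0 against PEN-WT, where the background was 44.8% and 3.72%. Without the filter, over all 23710 genes, 7, 5 and 5 host genes were lower and 0 higher with PEN-FFW against PEN, PEN-MUT and PEN-WT, where the background lower and higher was 23.3% and 8.56%, 25.7% and 8.44%, and 18.7% and 6.83%.

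A lower and a higher threshold were also counted. At 1.1-fold only the downward direction, the more frequent one above, has a background and is given. Counted downward at 1.1-fold, 5 of the 8 host genes passed with PEN-FFW against PEN, where 26.7% of tested genes did. PEN-FFW had 4 such genes against PEN-MUT (background 24.5%) and 2 against PEN-WT (15.4%). PEN-WT had 3 against PEN (18.5%) and 1 against PEN-MUT (11.1%), and PEN-MUT had 2 against PEN (16.9%). At 1.5-fold 0 host genes passed either way in any pair. The background there, lower and higher, was 0.437% and 7.24% for PEN-FFW against PEN, 0.0875% and 7.24% against PEN-MUT and 0.0318% and 4.17% against PEN-WT. It was 0.374% and 0.827% for PEN-WT against PEN, 0.0159% and 0.898% against PEN-MUT, and 0.350% and 0.215% for PEN-MUT against PEN.

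The snoRNAs inside the hosts had rows of their own in the table, and the sequences of those placed on GRCh37 by the annotation are shown to set out what these rows count. Printed are SNORD12 at chr20:47897220-47897309, plus strand, SNORD12B at chr20:47896856-47896946, plus strand and SNORD12C at chr20:47895477-47895565, plus strand in ZFAS1, SNORD78 at chr1:173834760-173834824, minus strand in GAS5 and SNORD99 at chr1:28905261-28905334, minus strand in SNHG12. Capitals mark TGATGA, the core of box C, in the first 20 bases and CTGA, box D, in the last 20 bases. SNORD12, SNORD12B and SNORD12C hold both, and SNORD78 and SNORD99 hold CTGA only under this search.
SNORD12: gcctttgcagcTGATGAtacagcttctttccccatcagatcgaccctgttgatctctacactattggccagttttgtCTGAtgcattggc
SNORD12B: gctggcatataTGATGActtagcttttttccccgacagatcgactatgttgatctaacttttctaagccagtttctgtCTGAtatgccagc
SNORD12C: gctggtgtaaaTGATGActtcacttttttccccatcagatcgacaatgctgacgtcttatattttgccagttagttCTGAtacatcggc
SNORD78: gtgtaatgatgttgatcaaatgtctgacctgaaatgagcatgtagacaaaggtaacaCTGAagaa
SNORD99: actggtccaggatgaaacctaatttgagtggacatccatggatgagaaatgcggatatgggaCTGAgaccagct

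By the spans of the RefSeq table, 34 snoRNA genes lie inside the 9 hosts, 32 had a row and 28 passed the filter. Those of SNHG7 and SNHG15 were listed at the floor. A row can hold reads of the mature snoRNA and of host RNA that still carries the intron, and these cannot be told apart in the table. In PEN-WT, 27 of the 28 rows stood below the median gene relative to PEN, with a median of -0.42, and 21 passed the threshold downward against 3.53% of all tested genes. In PEN-MUT 27 of 28 stood below, with a median of -0.32, and 14 were that much lower against 3.14%. In PEN-FFW 22 of 28 stood below, with a median of -0.24, and 8 were that much lower against 5.67%. Between PEN-FFW and PEN-MUT the median was 0.11, with 22 of 28 above the median gene and 3 higher by the threshold against 16.5% of tested genes, and between PEN-FFW and PEN-WT it was 0.21, with 23 above and 9 higher against 11.2%. As deposited these medians were -0.19 and -0.091, so their direction rests on the shift to the median gene. The 91 other snoRNA and Cajal body RNA rows tested had medians of 0.02 with PEN-FFW, -0.16 with PEN-WT and -0.15 with PEN-MUT against PEN. By the threshold 8, 21 and 24 of the 91 were lower and 13, 1 and 1 higher, in the same order. The background higher was 17.0%, 5.93% and 2.26%. Lower values with PEN-WT and PEN-MUT were thus also found outside the hosts, in a smaller share of rows. Between PEN-FFW and PEN-MUT the median of the 91 rows was 0.20, with 70 above the median gene and 33 higher by the threshold. Between PEN-FFW and PEN-WT it was 0.21, with 69 above and 29 higher. The higher values with PEN-FFW in these pairs were thus not particular to the rows inside the hosts. Rows of 1 host share a transcript and are not independent of each other, and the PEN library is shared by all of these differences.

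The 10 snoRNA rows of GAS5 held 1547 reads with PEN-FFW, 1943 with PEN-WT, 1692 with PEN-MUT and 2578 with PEN. Set beside the reads of GAS5 itself, these came to 32.1% with PEN-FFW, 26.1% with PEN-WT, 27.6% with PEN-MUT and 34.9% with PEN. The log2 ratio of snoRNA reads to host reads, which needs no scaling of libraries, differed from that with PEN by -0.42 with PEN-WT (95% counting interval -0.52 to -0.32), by -0.34 with PEN-MUT (-0.44 to -0.24) and by -0.12 with PEN-FFW (-0.23 to -0.02). All 10 rows stood below the median gene in each of these comparisons. The box C/D snoRNA SNORD80 was at 260 normalized counts with PEN-FFW, 255 with PEN-WT, 295 with PEN-MUT and 385 with PEN, and SNORD44 had 224, 241, 276 and 340 in the same order. In both PEN was the high library. PEN-FFW exceeded PEN-WT in the GAS5 ratio by 0.30 (0.19 to 0.41) and PEN-MUT by 0.22 (0.11 to 0.33).

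For SNHG1 the 8 rows came to 30.3% of host reads with PEN-FFW, 25.6% with PEN-WT, 24.9% with PEN-MUT and 29.4% with PEN. PEN-FFW and PEN lay together, with a log2 difference of 0.04 (-0.08 to 0.17), and PEN-WT (-0.20, -0.32 to -0.09) and PEN-MUT (-0.24, -0.36 to -0.12) lay below PEN. The 3 rows of ZFAS1 came to 19.0% with PEN-FFW, 17.0% with PEN-WT, 15.5% with PEN-MUT and 20.8% with PEN, a difference from PEN of -0.29 (-0.45 to -0.13) with PEN-WT and -0.43 (-0.60 to -0.25) with PEN-MUT. In SNHG12 the interval of the ratio of its 4 rows to the host spanned 0 with PEN-FFW (-0.27 to 0.14), PEN-WT (-0.15 to 0.25) and PEN-MUT (-0.07 to 0.35). SNORD87 in SNHG6 had only 62 reads with PEN-FFW, 46 with PEN-WT, 57 with PEN-MUT and 80 with PEN, and its ratio with PEN-WT differed from that with PEN by -0.92, with a wide interval (-1.46 to -0.39). Over the 7 hosts with counted rows, 5 ratios had intervals below 0 with PEN-WT against PEN, 3 with PEN-MUT and 1 with PEN-FFW, and 0 had intervals above.

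Single rows carried few counts and wide errors. In GAS5, SNORD79 had the largest difference of PEN-WT from PEN, -0.78 ± 0.19, on 61.9 normalized counts (PEN-FFW), 52.0 (PEN-WT), 72 (PEN-MUT) and 94.1 (PEN). SNORD81 was at 57.2 normalized counts with PEN-FFW, against 81.5 (PEN-WT), 87 (PEN-MUT) and 110.0 (PEN). In SNHG1, SNORD22 (U22) was at 129 normalized counts with PEN-FFW and 143 with PEN, a difference of 0.14 ± 0.15 beyond the median gene, and at 115 with PEN-WT (-0.32 ± 0.15 from PEN). SNORD28 of the same gene differed from PEN by -0.37 ± 0.16 (PEN-FFW), -0.66 ± 0.15 (PEN-WT) and -0.50 ± 0.16 (PEN-MUT). SNORD99, whose sequence is printed above, was at 57.2 normalized counts with PEN-FFW, 39.6 with PEN-WT, 56 with PEN-MUT and 66.3 with PEN, and PEN-WT differed from PEN by -0.65 ± 0.21. The H/ACA row SNORA44 was at 130.2, 129.6, 117 and 126 normalized counts in that order, with PEN-WT at 0.01 ± 0.15. SNORA24 of SNHG8 stood at -0.44 ± 0.18 (PEN-FFW), -0.29 ± 0.16 (PEN-WT) and -0.32 ± 0.17 (PEN-MUT) against PEN. Its intervals with PEN-WT (-0.60 to 0.02) and PEN-MUT (-0.66 to 0.01) spanned 0.

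**Figure D3:**
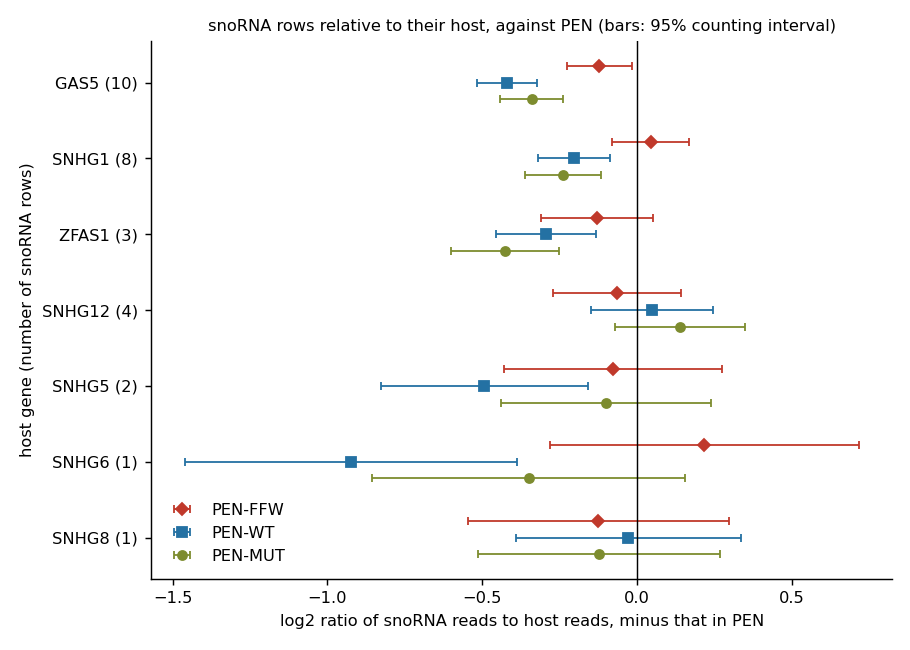
Log2 ratio of reads in snoRNA rows to reads in their host gene, minus the same ratio with PEN (x axis), for the 7 hosts with counted rows (number of rows in brackets), with 95% counting intervals from 1 library per peptide. PEN-WT (squares) and PEN-MUT (circles) lie left of 0 for GAS5, SNHG1 and ZFAS1, and SNHG12 lies around 0 in all 3 peptides.

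Of 16 further noncoding hosts listed, 9 had a row and 8 passed the filter. Their median against PEN was -0.11 with PEN-FFW, -0.16 with PEN-WT and -0.15 with PEN-MUT, and by the threshold 1, 2 and 1 were lower and 0 were higher, where 5.67%, 3.53% and 3.14% of tested genes were lower and 17.0%, 5.93% and 2.26% higher. SNHG16 had 9258 normalized counts with PEN-FFW, 12882 with PEN-WT, 13904 with PEN-MUT and 15218 with PEN, a difference from PEN of -0.45 ± 0.02 with PEN-FFW, -0.27 ± 0.02 with PEN-WT and -0.15 ± 0.02 with PEN-MUT. SNHG10 stood at -0.20 ± 0.08, -0.43 ± 0.08 and -0.22 ± 0.08 and SNHG9 at -0.13 ± 0.19, -0.07 ± 0.17 and -0.14 ± 0.18 in the same order. SNHG3 and SNHG4 were chosen after their values were seen. SNHG3 was at 1382 normalized counts with PEN-FFW, 1460 with PEN-WT, 1406 with PEN-MUT and 1653 with PEN. Relative to the median gene SNHG3 differed from PEN by 0.01 ± 0.05 with PEN-FFW, -0.21 ± 0.05 with PEN-WT and -0.25 ± 0.05 with PEN-MUT, and SNHG4, at 227, 217, 172 and 273 normalized counts with PEN-FFW, PEN-WT, PEN-MUT and PEN, by 0.02 ± 0.12, -0.35 ± 0.11 and -0.66 ± 0.13. As in SNHG12, PEN-FFW stood above PEN-WT, by 0.22 ± 0.05 (SNHG3) and 0.37 ± 0.12 (SNHG4). PEN-FFW stood above PEN-MUT by 0.27 ± 0.05 and 0.68 ± 0.14. As deposited these differences were -0.079 and 0.066, and -0.025 and 0.38. Of the 8 further hosts tested, 4 were above the median gene with PEN-FFW against PEN-WT and 6 against PEN-MUT.

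Most protein-coding snoRNA hosts were below 0 with PEN-FFW against PEN. So were 22 of the 22 tested ribosomal protein hosts, whose median was -0.21, RPSA of the small subunit at -0.29 ± 0.01, and RPL23A at -0.29 ± 0.02 and RPL17 at -0.28 ± 0.15 of the large subunit. In PEN-MUT 18 of these 22 stood above the median gene instead, with a median of 0.04, and with PEN-WT 21 stood below, with a median of -0.09. The count past the threshold was 0 with PEN-FFW, 1 lower (RPL17, -0.39 ± 0.13) with PEN-WT and 0 with PEN-MUT, against the same background. RPL17 had the fewest counts of these 22 genes, at 128 normalized counts with PEN-FFW, 148 with PEN-WT, 169 with PEN-MUT and 193 with PEN. The 27 other coding hosts tested had medians of -0.21 with PEN-FFW, -0.13 with PEN-WT and -0.06 with PEN-MUT, with 6, 2 and 1 past the threshold downward (background 5.67%, 3.53% and 3.14%) and 0 upward. Lowest with PEN-FFW were WDR43, a factor of the small ribosomal subunit's assembly (-0.52 ± 0.03), PPAN (-0.51 ± 0.13) and the chaperone gene HSPA8 (-0.49 ± 0.01). The 17 further 5′ TOP genes that host no listed snoRNA had medians of -0.16 with PEN-FFW, -0.06 with PEN-WT and 0.04 with PEN-MUT, and 0 passed the threshold in any of them. HNRNPA1, which encodes an RNA-binding protein, stood at -0.27 ± 0.06 with PEN-FFW against PEN, and the ribosomal protein gene RPS4X at -0.26 ± 0.01.

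Genes of proteins that build the snoRNA particles had the lowest median of the lists with PEN-FFW. Set against PEN, 17 of its 18 genes were below 0 with PEN-FFW, with a median of -0.29, and 7 passed the threshold downward against 5.67% of tested genes. GAR1 of the H/ACA core stood at -0.58 ± 0.07, NHP2L1, which binds the C/D snoRNA, at -0.47 ± 0.04, and DKC1, the pseudouridine synthase, at -0.46 ± 0.03. The list's medians were -0.16 with PEN-WT and -0.11 with PEN-MUT, with 1 and 2 members past the threshold downward (background 3.53% and 3.14%). The 18 factors of nonsense-mediated decay lay evenly around the median gene with PEN-FFW, with 9 below and 9 above (median -0.03), and 2 passed the threshold upward against 17.0% of tested genes, SMG6 (0.41 ± 0.06) and the kinase gene SMG1 (0.41 ± 0.02). MAGOH of the exon junction complex was the lowest (-0.27 ± 0.06). The 9 genes known as targets of that pathway had medians of -0.12 with PEN-FFW, -0.08 with PEN-WT and -0.01 with PEN-MUT, with TRIB3, a stress-induced pseudokinase, lowest with PEN-FFW (-0.44 ± 0.05), followed by UPP1 (-0.30 ± 0.13) and BAG1 (-0.20 ± 0.06).

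**Figure D4:**
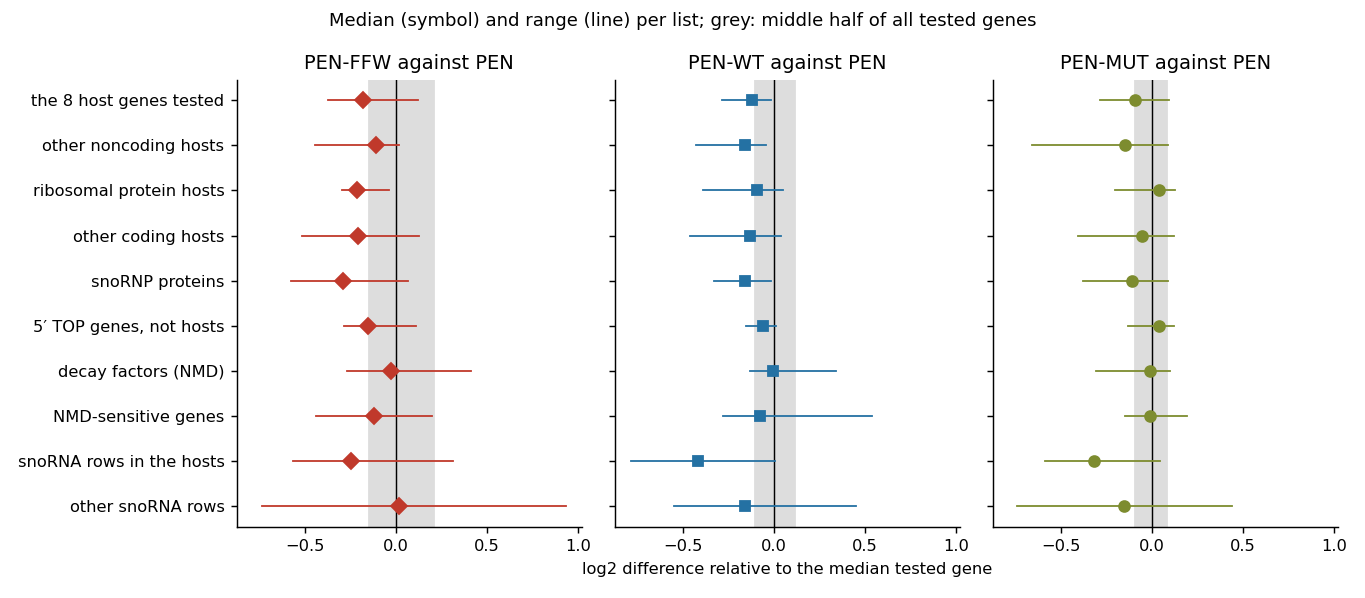
Median (symbols) and range (lines) of log2 differences against PEN, with the median tested gene at 0 (x axes), for the 8 tested host genes and related gene lists, in 1 panel per peptide, where the grey band spans the quartiles of all tested genes. The snoRNA rows inside the hosts have the lowest medians with PEN-WT (-0.42) and PEN-MUT (-0.32), and the snoRNA particle proteins with PEN-FFW (-0.29).

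The genes whose profile over the 4 libraries lay closest to the median profile of the 8 host genes were sought among 6628 genes with a mean of at least 1000 normalized counts, by Euclidean distance on the log2 scale. The 6 closest were DSCR3 (distance 0.016), TMEM208, DDX24, SSFA2, TGS1 and TAF7 (0.020). TGS1, which further methylates the cap of those small nuclear and nucleolar RNAs that have one, stood at -0.18 with PEN-FFW, -0.13 with PEN-WT and -0.05 with PEN-MUT against PEN. GAS5 itself lay at a distance of 0.039 and SNHG12 at 0.398, against 0.155 for the median candidate. A distance under 0.1 was found for 1483 genes, so the profile is a common one in these libraries.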

How the data were processed

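RNA from SNU398 cells was sequenced in 4 libraries, 1 per peptide. For these paired-end reads the submitters' processing notes name STAR 2.4.0i, featureCounts 1.5.0-p1 and the hg19 build. Annotation, strand setting and normalization method were not stated there or in the labels, so reads of genes that overlap on opposite strands cannot be told apart. The authors deposited log2 values. Undoing the log gave whole multiples of 1 step per library for 100% of values above the floor (tolerance 0.1 read), with steps of 0.923 (PEN-FFW), 0.776 (PEN-WT), 1 (PEN-MUT) and 0.840 (PEN), and values under 5 set to 5.

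Reads were recovered as value over step. Genes with a mean of at least 50 normalized counts were kept (12578, 53.0%). Differences are log2(normalized count + 10) minus the median over these genes, which understates changes of low genes, and standard errors follow the Poisson law. No count model or p-value was used, as each group has 1 library. Positions, lengths and GC content came from GENCODE 44 on GRCh37, which may differ from the authors' annotation (20304 rows matched by symbol, 1572 by older symbol). snoRNA hosts came from RefSeq spans. The members and gene lists were chosen with earlier results of these data known. All members are named, with the 3 genes of each list farthest from 0 with PEN-FFW against PEN and the 6 genes of nearest profile, except that some genes are not reported here. The recovery of reads and folds was tested on simulated data. Python 3.11.15, numpy 2.4.6, scipy 1.17.1 and pandas 2.3.3 were used. Alternatives covered scaling, centring, pseudocount, filter, GC content and abundance.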

Additional observations from a re-analysis of the deposited data

How the results depend on the processing

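No paired analysis was possible because each peptide has 1 library, and for the same reason no replicate could be left out. No counting interval of a median was computed, so the 6 medians over the host genes were judged by a tolerance from single-gene counting intervals. Such a tolerance is coarse for a median, and staying within it does not show that a median is stable. All 6 medians stayed within it under median-ratio scaling, TMM scaling and pseudocounts of 1 and 50. They did so too with the log2 values as deposited with no pseudocount, and with a minimum mean of 200. The medians also stayed within it relative to genes of like GC content or abundance. So did the medians without the most and least abundant member or (added after the data were seen) SNHG12. Some nonetheless changed by over 1.5 times: against genes of like abundance PEN-FFW was at -0.056 against PEN-MUT and -0.035 against PEN-WT, and without the most and least abundant member at -0.070 and -0.022, with PEN-WT against PEN-MUT at -0.034. As deposited, without the shift to the median gene, the medians of PEN-FFW became -0.45 against PEN, -0.43 against PEN-MUT and -0.37 against PEN-WT, with 7, 5 and 5 genes past the threshold downward and 0 upward, where 41.3%, 45.6% and 44.8% of all tested genes passed downward. Without a filter the median over all 23710 genes was 0, 0 and -0.045, and the values were -0.45, -0.43 and -0.33 with 7, 5 and 5 lower and 0 higher, where 23.3%, 25.7% and 18.7% of genes were lower. At 1.1-fold, 5, 4 and 2 genes were lower with PEN-FFW against PEN, PEN-MUT and PEN-WT, 3 with PEN-WT against PEN, 1 with PEN-WT against PEN-MUT and 2 with PEN-MUT against PEN. At 1.5-fold 0 were lower and 0 higher. Of 48 single-gene differences, 24 moved beyond their counting interval as deposited, 5 against genes of like GC content, 5 against genes of like abundance and 0 under either scaling. Those that moved against genes of like abundance were of SNHG1 and GAS5, in pairs with PEN-FFW.

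For the snoRNA rows (alternatives added after the data were seen), the medians of -0.24 with PEN-FFW against PEN, 0.11 against PEN-MUT and 0.21 against PEN-WT became -0.51, -0.19 and -0.091 as deposited, with the sign turned in both pairs other than PEN, and without a filter -0.51, -0.19 and -0.046. Relative to genes of like abundance they were -0.44, -0.073 (again turned) and 0.071, and -0.47 with PEN-WT against PEN. The 0.11 became 0.060 under median-ratio and 0.059 under TMM scaling. A pseudocount of 50 gave -0.16 with PEN-FFW, -0.34 with PEN-WT and -0.25 with PEN-MUT against PEN. The ratios to the host stayed within their counting intervals when the median of the rows replaced their sum (GAS5, SNHG1 and ZFAS1, 6 pairs each). The cause of the other shifts was not tested.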

Other observations

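Genes that share a position with the host genes were looked up within 5000 bases on GRCh37. SLC3A2, the heavy chain of amino acid transporters, starts 51 bases from SNHG1 on the other strand and stood at -0.17 with PEN-FFW, -0.06 with PEN-WT and -0.0029 with PEN-MUT against PEN, relative to the median tested gene, where SNHG1 stood at -0.23, -0.25 and -0.09. ZBTB37, a zinc finger gene that overlaps the start of GAS5 on the other strand, stood at 0.04, -0.12 and -0.04, beside -0.21, -0.13 and -0.04 for GAS5. GAS5-AS1, antisense within GAS5, was at 117 normalized counts with PEN-FFW, 123 with PEN-WT, 117 with PEN-MUT and 155 with PEN, and stood at -0.11, -0.35 and -0.40, an order closer to that of the snoRNA rows of GAS5 than to GAS5 itself. TAF12, a subunit of the transcription factor TFIID 4697 bases from SNHG12, stood at -0.38, -0.11 and -0.07, beside 0.12, -0.25 and -0.29 for SNHG12. Because the strand setting of the counting is not given in the sources used here, values of overlapping genes are uncertain.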
